A study of Caenorhabditis elegans with 2 samples.

Results

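The synthetic multivulva (synMuv) class A genes of the nematode Caenorhabditis elegans are lin-8, lin-15A, lin-38 and lin-56, and all 4, taken as a named list, were found among the 19973 protein-coding nuclear genes of the annotation. They were scored in a chromatin immunoprecipitation and sequencing (ChIP-seq) map of LIN-15B, a synMuv class B protein, in whole L3 larvae of mixed sex. The 1 group comprised 2 biological replicates of strain OP184, genotype unc-119(tm4063) III; wgIs184, in which an integrated transgene supplies LIN-15B tagged with eGFP. Both replicates carry the unc-119 mutation and the transgene. The labels do not give the sequence the transgene carries beside lin-15B, its copy number or the cells that express it. No second condition was measured, so no test between groups was possible and the values below are descriptions. The 2 replicates show how far values repeat.

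Worms that lose a class A gene together with a class B gene grow extra vulva-like structures, whereas loss within a single class leaves the vulva largely normal. The classes act redundantly to keep lin-3, the EGF ligand of vulval induction, from being expressed in the wrong cells. LIN-8 is a nuclear protein that binds the retinoblastoma homologue LIN-35, LIN-15A and LIN-56 are nuclear proteins that interact with each other, and LIN-38 is annotated with a C2H2-type zinc finger domain. The question addressed here was where LIN-15B peaks lie relative to the genes of the partner class.

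Peaks came from 4 lists of the authors in genome build ce11. These are the list that passed their irreproducible discovery rate (IDR) threshold (3331 peaks), the longer pooled list from which it was drawn (30000 entries, peaks and background) and the lists of replicate 1 (24760) and replicate 2 (27552). The authors' signal for each peak has no stated unit and serves here to order peaks inside a list. Read counts are not given and the depth is unknown. A gene was called bound where an IDR summit lay from 500 bp upstream to 200 bp downstream of an annotated 5' end, here named the promoter window. Positions are 1-based, and offsets in bp are counted from the annotated 5' end, negative upstream. Each of the 4 genes has a single annotated 5' end and lies on the plus strand.

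The sequences under the peaks are shown first, because the members differ in them as well as in signal. The IDR peak of lin-38 (chrII:13575578-13575867) is given in full. For lin-8, the summits of its upstream pooled entries with 50 bases on either side (chrII:3054753-3054853 and chrII:3055652-3055752) are given beside the 250 bases just before its 5' end (chrII:3056572-3056821), where no pooled summit lay. Windows of the same size at the highest pooled entries within 5 kb of lin-15A (chrX:15736599-15736699) and lin-56 (chrII:10445925-10446025) complete the set. Capitals mark the words searched, each on both strands. These were the GAGA repeat GAGAGA, the palindrome GCGCGC, the GC box GGGCGG and the TATA box TATAAA. An E2F site was spelled TTCCCGC, with the variant TTGGCGC, the variant TTCGCGC and the variant TTGCCGC. A CHR element or LIN-54 site was spelled TTTGAA, with the palindromic variant TTCGAA. Where matches overlap, as GCGCGC does with itself, the capitals run on.
lin-38 IDR peak: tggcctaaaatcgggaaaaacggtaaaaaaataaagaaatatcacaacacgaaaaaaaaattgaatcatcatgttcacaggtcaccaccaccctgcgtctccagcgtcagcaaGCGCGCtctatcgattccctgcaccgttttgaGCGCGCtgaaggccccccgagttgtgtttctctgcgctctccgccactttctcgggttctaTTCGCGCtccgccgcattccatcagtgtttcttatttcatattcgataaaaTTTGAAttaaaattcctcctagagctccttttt
lin-8 entry at -2019 bp: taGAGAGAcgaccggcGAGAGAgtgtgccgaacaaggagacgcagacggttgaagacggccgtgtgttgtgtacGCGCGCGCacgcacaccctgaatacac
lin-8 entry at -1120 bp: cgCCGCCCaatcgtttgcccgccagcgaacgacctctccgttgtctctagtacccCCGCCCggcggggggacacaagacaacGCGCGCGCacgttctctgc
lin-8 upstream sequence: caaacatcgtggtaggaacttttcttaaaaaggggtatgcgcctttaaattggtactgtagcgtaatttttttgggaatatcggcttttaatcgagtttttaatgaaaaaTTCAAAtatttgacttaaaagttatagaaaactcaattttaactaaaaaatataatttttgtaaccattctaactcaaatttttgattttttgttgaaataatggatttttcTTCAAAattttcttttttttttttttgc
lin-15A entry at 4681 bp: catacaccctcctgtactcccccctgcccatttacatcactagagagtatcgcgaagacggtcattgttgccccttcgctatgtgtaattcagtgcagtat
lin-56 entry at -4032 bp: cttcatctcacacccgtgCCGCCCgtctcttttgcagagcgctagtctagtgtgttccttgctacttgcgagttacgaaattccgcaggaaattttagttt

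Of the 4 synMuv A genes, 1 (lin-38) had an IDR summit in its promoter window, against 13.4% of all protein-coding genes. With 4 members, a count of 1 says little beside that share. The lin-38 peak was strong, and lin-8, lin-15A and lin-56 had no pooled summit in their windows, where 36.8% of all genes had one. The interval of a weak pooled entry (signal 7.40) did reach into the lin-15A window from upstream. Within 5 kb of the 5' end, 3 of the 4 (lin-15A, lin-38 and lin-56) had an IDR summit, against 34.4% of genes. The nearest IDR summit lay 212 bp from lin-38, 4032 bp from lin-56, 4681 bp from lin-15A and 20309 bp from lin-8. The median of these is 4356.5 bp, against 10283 bp over all genes, and 7.97% of genes had a nearer IDR summit than lin-38, while 68.0% had a nearer one than lin-8.

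**Figure D1:**
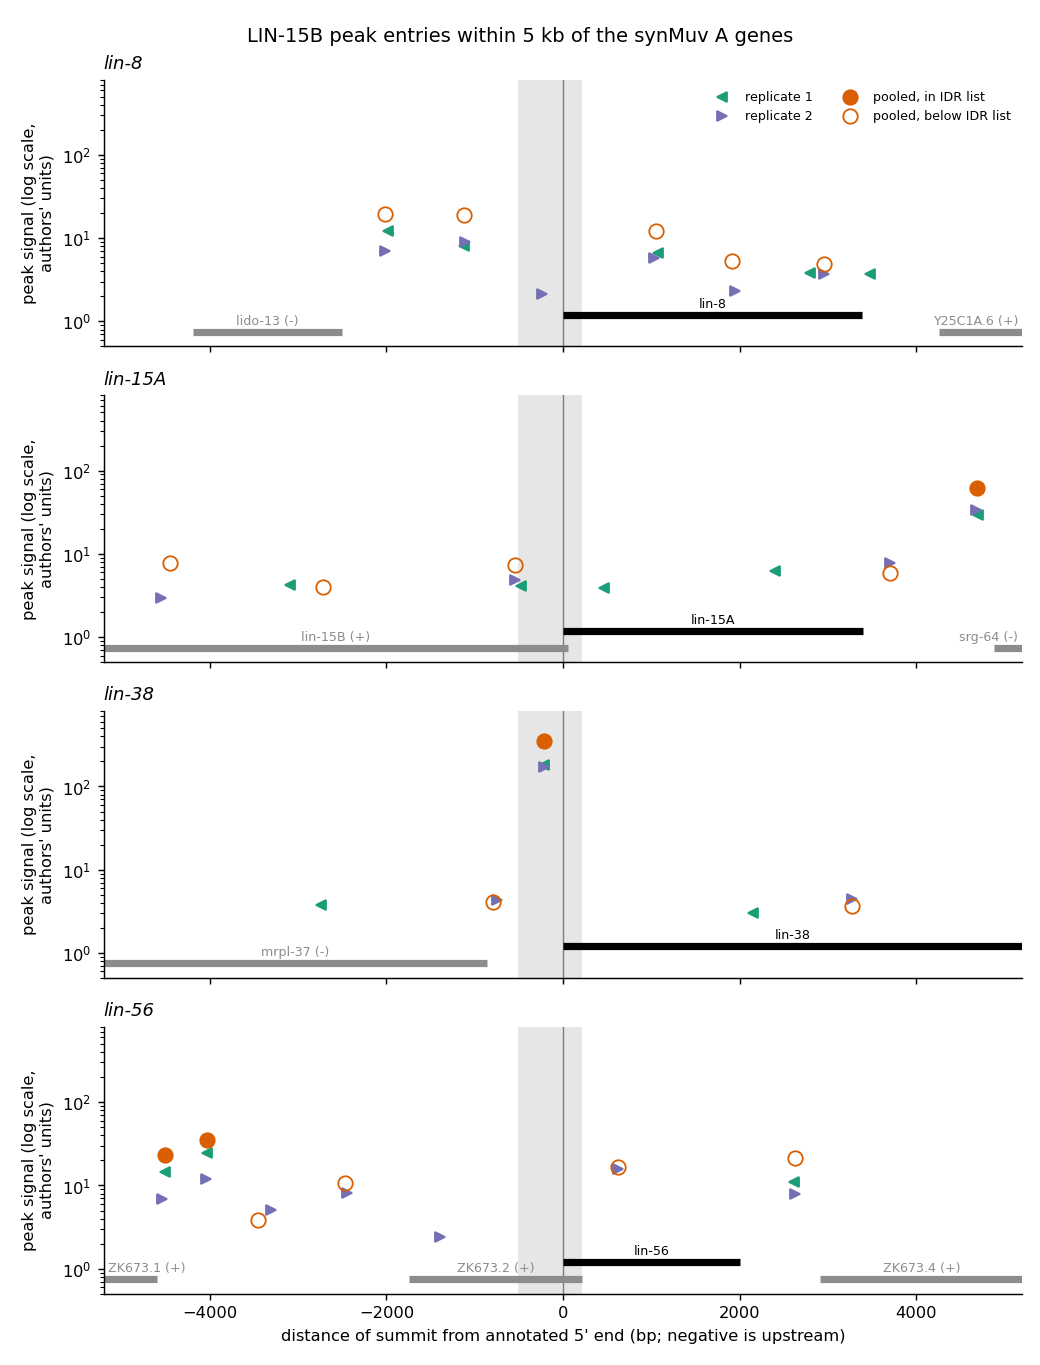
Peak entries within 5 kb of each synMuv A gene, with the distance of the summit from the annotated 5' end in bp on the x axis and the authors' signal on a log y axis. Filled circles are pooled peaks of the IDR list, open circles pooled entries below it, triangles the entries of each replicate, the grey band is the promoter window, and bars show the genes with their strand; the lin-38 circle at -212 bp, with a signal of 355, stands far above all other pooled entries.

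The gene lin-38 (WBGene00013006, chrII:13575925-13585523, 9 exons) carried a single high peak just before its start. The pooled signal was 355 (rank 100 of the IDR list), and the summit lay 212 bp upstream of the 5' end in intergenic sequence. The signal was 181 in replicate 1 (rank 85, summit at -217 bp) and 169.9 in replicate 2 (rank 138, summit at -215 bp). The summits of the 3 lists thus fell within 5 bp of each other, and the replicate signals were nearly level. The log2 ratio of replicate 2 over replicate 1 was -0.09. Over the 3322 IDR peaks found in both replicates, the median was 0.26 with an SD of 0.63. The lin-38 value thus lay -0.56 SD from that median, in a spread that takes in weak and strong peaks alike.

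Among all protein-coding genes, 137 (0.686%) had a higher pooled signal in the promoter window than lin-38. In the replicates, 0.576% of genes were higher in replicate 1 and 0.926% in replicate 2. The summit lay in no other gene's promoter window. The neighbour mrpl-37, which encodes a mitochondrial ribosomal protein, runs in the opposite direction, with 856 bp between the genes, so their 5' ends face each other and the summit lies nearer to lin-38. The rest of the region held weak entries. The other pooled entries within 5 kb were at -793 bp (signal 4.07, rank 23339) and at 3269 bp in an intron (3.67, rank 26406). Both overlapped an entry of replicate 2 but none of replicate 1. The entry at -793 bp lay 64 bp upstream of mrpl-37, inside the promoter window of that gene. Replicate 1 alone listed summits at -2738 bp in an intron of mrpl-37 (3.82) and at 2145 bp in lin-38 coding sequence (3.00). The genes whose window peaks were most like that of lin-38, by the Euclidean distance of the log2 signals in the pooled list and the 2 replicates among 2682 bound genes, were sqd-1 (pooled signal 353, distance 0.10), tba-2, which encodes an alpha-tubulin (353, distance 0.12), and ile-2 (339, distance 0.13).

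**Figure D2:**
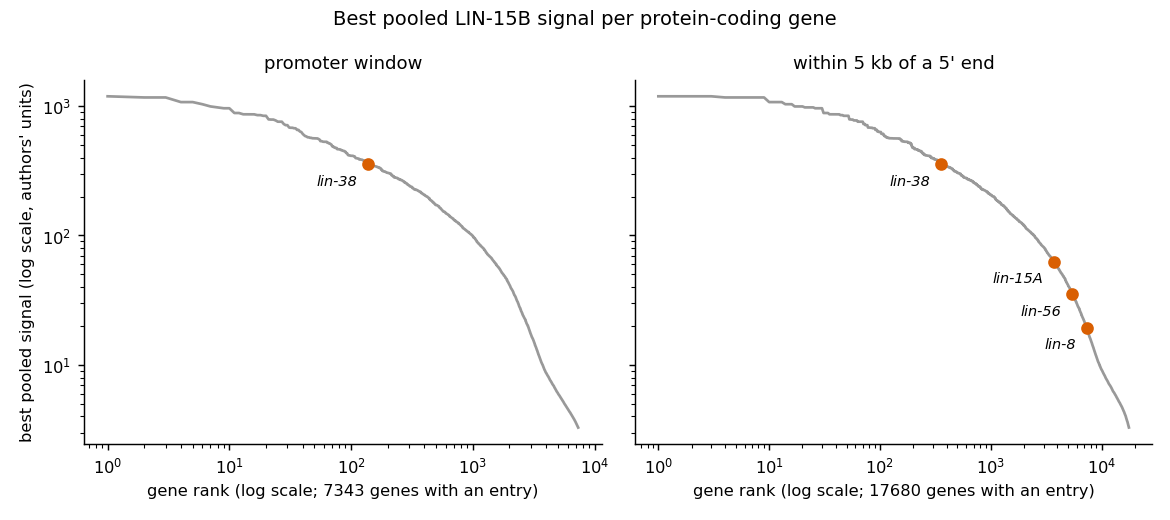
Best pooled signal of every protein-coding gene (log y axis, authors' units) against its rank (log x axis), in the promoter window on the left and within 5 kb of a 5' end on the right, for genes with an entry. In the window lin-38 (signal 355) is the only member on the curve, and within 5 kb lin-15A (62.8), lin-56 (35.3) and lin-8 (19.4) follow well below it.

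The lin-38 summit sequence was rich in G and C. Of the bases within 50 bp of it, 62.4% were G or C, against 47.0% ± 7.30 (SD over 3331 IDR summit windows). It held GCGCGC at 234 and again at 202 bp upstream of the 5' end, one on each side of the summit, a sequence found at 10.1% of IDR summits and in 3.57% of the promoters (250 bases before to 50 after the most upstream 5' end) of all genes. An E2F site, TTCGCGC, began 141 bp upstream and a TTTGAA 90 bp upstream, both inside the peak but over 50 bp from the summit. E2F sites were in 9.19% and CHR or LIN-54 sites in 68.9% of all promoters, so the TTTGAA is an ordinary feature. GAGAGA, found at 26.9% of IDR summits, did not occur in the lin-38 peak.

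The gene lin-8 (WBGene00002997, chrII:3056822-3060207, 4 exons) had no IDR peak within 5 kb. It had 5 pooled entries there, against a median of 3 over all genes and of 5 over the synMuv A genes. Its upstream neighbour lido-13, a LIN-8 domain gene, runs in the opposite direction, and 2500 bp of intergenic sequence separate them. This gap held both of the higher entries. The entry at -2019 bp had a pooled signal of 19.4 (rank 3764), with 12.3 in replicate 1 and 7.06 in replicate 2, and lay 482 bp upstream of lido-13, inside the promoter window of that gene. The entry at -1120 bp had a pooled signal of 18.8 (rank 3851), with 8.11 in replicate 1 and 8.93 in replicate 2, and lay outside the promoter windows of lin-8 and lido-13. Both were below the IDR list, whose lowest signal was 22.7, and both reached the ceiling of the deposited −log10 q-value in the pooled list, 3.96. An entry at 1052 bp in an intron (12.3, rank 5462) was also in both replicates (6.63 and 5.85).

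In the promoter window of lin-8 a single entry was listed, in replicate 2 at -234 bp, with a signal of 2.11 (rank 26237 of 27552). That is close to the lowest signal of its list, and neither replicate 1 nor the pooled list held it. For comparison, 32.5% of all genes had an entry of replicate 1 in the promoter window and 35% one of replicate 2, so such calls are common. The sequence just before lin-8 was poor in G and C, at 24.4% of the 250 bases shown, and held TTTGAA on the minus strand as its sole motif, at 2 places. The upstream entries were the opposite. They had 60.4% (at -2019 bp) and 68.3% (at -1120 bp) G or C, against 45.0% ± 7.64 (SD over the 1254 pooled entries below the IDR list at the q-value ceiling), and both held GCGCGC, found in 4.47% of those entries. GCGCGC thus lay at the lin-38 summit and at both upstream lin-8 summits, but not within 50 bp of the highest summits at lin-15A or lin-56.

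The window of lin-15A (WBGene00023498, chrX:15731968-15735365, 6 exons) must be read with its neighbour. The lin-15 genes follow each other on the same strand, and the annotated lin-15A start lies inside lin-15B, overlapping it by 58 bp, so that the upstream part of the lin-15A window is the end of lin-15B. No pooled entry had its summit in this window. Replicate 1 listed a summit at -476 bp (signal 4.16, rank 9618), and replicate 2 and the pooled list placed it at -550 bp (4.87 and 7.40), just outside the window. In the pooled list it was rank 9772. These positions are in the coding sequence of lin-15B, and the signals are low. The body of lin-15A itself had entries in replicate 1 alone, at 460 bp in an intron (3.87) and at 2395 bp in coding sequence (6.32). Neither had a counterpart in replicate 2 or the pooled list.

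The IDR peak within 5 kb of the lin-15A start lay behind the gene, not before it. Its summit, at 4681 bp, was in the intergenic stretch between lin-15A and srg-64, a chemoreceptor gene that runs towards it, so it is beyond the 3' ends of both. The pooled signal was 62.8 (rank 1388), with 29.2 in replicate 1 and 34.1 in replicate 2. Their log2 ratio of 0.22 was close to the median of all IDR peaks. The sequence within 50 bp of the summit held none of the motifs searched. The other IDR summits of the locus were before lin-15B, at 6796 bp (signal 425.9) and 6202 bp (95.8) upstream of lin-15A. Between them and the peak behind lin-15A, across both genes, no IDR summit was found. Whether copies of the lin-15 region in the transgene add to these signals was not tested. Use of the sequence before lin-15B as a promoter of lin-15A was likewise not tested.

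The gene lin-56 (WBGene00003038, chrII:10450007-10452005, 4 exons) also starts inside another gene. The annotated 5' end overlaps ZK673.2, annotated as a putative adenylate kinase on the same strand, by 216 bp, and its 5' UTR of 763 bp is long beside the 6 to 13 bp of the other members. No list held a summit in its promoter window. The IDR summits within 5 kb were at -4032 bp (pooled signal 35.3, rank 2365) and -4507 bp (23.0, rank 3282), between ZK673.1 and ZK673.2, on the far side of ZK673.2. The lower of them lay near the foot of the IDR list. Use of the sequence before ZK673.2 as a promoter of lin-56 was not tested.

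The replicates differed at these lin-56 peaks. At -4032 bp the signal was 24.5 in replicate 1 and 12.0 in replicate 2, and at -4507 bp it was 14.4 and 6.85. The log2 ratios were -1.03 and -1.07, or -2.04 and -2.10 SD from the median of the IDR peaks. Of all IDR peaks, 5.45% and 5.06% lay farther from that median. Peaks of like rank were not taken apart, so whether such a difference is unusual for weak peaks is not shown. An entry inside lin-56 went the other way. At 624 bp, in the annotated 5' UTR and 139 bp before the first coding base, the pooled list held a signal of 16.6 (rank 4245, at the q-value ceiling) and replicate 2 one of 15.9 (rank 2775), while replicate 1 listed none. Such a gap was uncommon, since 47 of the 1254 pooled entries between the IDR list and the end of the q-value ceiling (3.75%) had no overlapping entry in replicate 1. This entry was therefore seen in a single replicate. Behind the gene, a pooled entry at 2624 bp (21.1, rank 3509) was in both replicates (10.9 and 7.98) and lay 289 bp before ZK673.4. The pooled entries at -2471 bp (10.6) and -3456 bp (3.87) overlapped entries of replicate 2 alone, with 8.04 and 5.10. Replicate 2 therefore listed more summits around lin-56 than replicate 1, with 7 against 3 within 5 kb. The medians over all genes were 3 in replicate 2, the longer list, and 2 in replicate 1.

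**Figure D3:**
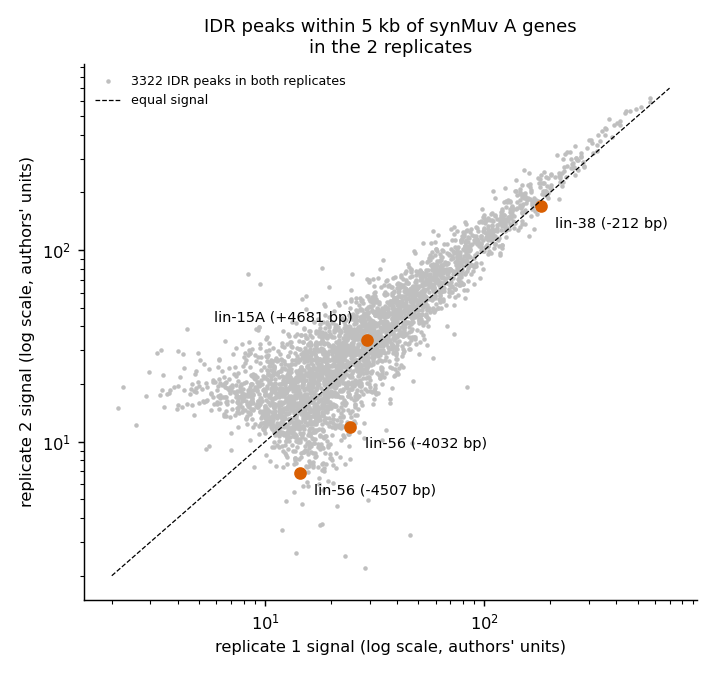
Signal in replicate 1 (x axis) and replicate 2 (y axis), both log scales in the authors' units, of the 3322 IDR peaks present in both replicates (grey) and of the 4 that lie within 5 kb of a synMuv A gene (orange); the dashed line marks equal signal. The lin-38 (181 and 169.9) and lin-15A (29.2 and 34.1) points are near the line, and the pair of lin-56 points is below it, with replicate 1 higher.

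Over all members, the pooled list held 19 entries within 5 kb, of which 4 were in the IDR list. Of the 19, 10 overlapped an entry in both replicates, 8 in replicate 2 alone, 0 in replicate 1 alone and 1 in neither. Replicate entries that overlapped no pooled entry are not in this count. Replicate 1 had such entries near lin-8, lin-15A and lin-38, and replicate 2 near lin-8 and lin-56. Across the genome 99.7% of IDR peaks and 27.0% of the lower pooled entries were present in both. Of those lower entries, 31.3% overlapped replicate 2 alone, 24.96% replicate 1 alone and 16.7% neither. All 4 member peaks in the IDR list were among those in both replicates, and the entries missing from a replicate were all below that list.

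The other genes of the pathway were examined through 7 lists, to be read against the 13.4% of all genes that were bound. The DREAM complex and retinoblastoma genes, the core of class B, were bound in 6 of 8 cases, led by lin-54 (840.2), a DNA-binding subunit, lin-9 (529.9), lin-35 (322) and lin-53 (304). The summits of lin-54, lin-35 and lin-53 also lay in the window of another gene (rpl-12, vps-51 and nra-2), so those peaks cannot be assigned to the DREAM gene alone. The same held for lin-61, trr-1, epc-1, mrg-1 and gfl-1 below. Only lin-54 and lin-9 had a higher IDR signal in the promoter window than lin-38 among all genes of these lists. Both genes of the THAP list were bound, lin-36 (143) and lin-15B (95.8). A higher IDR peak before lin-15B (425.9, at -951 bp) lay outside its window. The heterochromatin and MEC complex genes were bound in 2 of 9 cases, lin-61 (82.3) and mep-1 (79.6), which is 22.2% and near the share of all genes at this list size. The synMuv C genes, whose products form a histone acetyltransferase complex, were bound in 3 of 4, epc-1 (167), trr-1 (123) and mys-1 (72.9). Genes whose loss suppresses synMuv traits were bound in 4 of 5, led by mrg-1 (139), a chromodomain protein, and followed by isw-1 (62.3), a remodeller, mes-4 (40.6), a histone methyltransferase, and gfl-1 (31.5). These lists are small and were described without a test.

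In the EGF-Ras-MAPK list of vulval signalling 1 of 13 genes (7.69%) was bound, lin-45, the Raf kinase (35.8, summit at -48 bp). At this list size that is near the 13.4% of all genes, and the count was 0 among the 1665 highest IDR peaks. The ligand gene lin-3 had no IDR summit in any window, the nearest was 17905 bp away, and its windows held a pooled entry with a signal of 5.004 and no entry of either replicate. The LIN-8 domain genes, named lido and related to lin-8, were bound in 1 of 17 cases (5.88%), likewise near the share of all genes. This was lido-7 (61.2, summit at -256 bp, with 31.1 in replicate 1 and 28.1 in replicate 2). The median distance to the nearest IDR summit was 17755 bp in the LIN-8 domain list, and lin-8 itself was at 20309 bp. That distance for lin-8 depended on the list, and was 1987 bp with the 3331 highest peaks of replicate 1 and 1120 bp with the 4585 pooled peaks at the q-value ceiling.

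**Figure D4:**
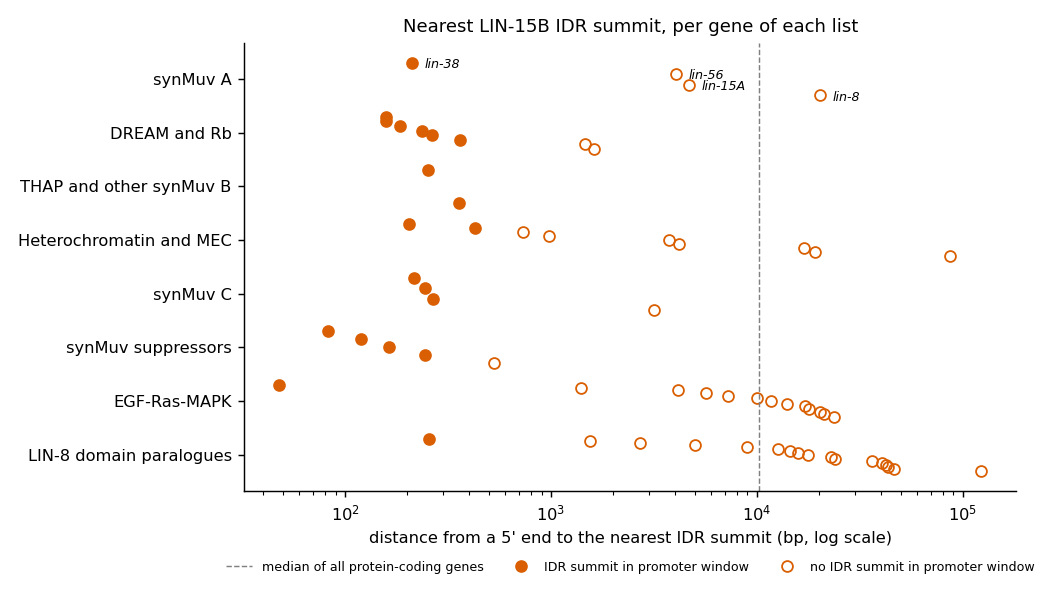
Distance from a 5' end to the nearest IDR summit (log x axis, bp) for every gene of the synMuv A list and of the 7 other lists, filled where the summit lies in the promoter window; the dashed line is the median of all protein-coding genes, 10283 bp. Of the synMuv A genes lin-38 sits at 212 bp beside most DREAM genes, lin-56 and lin-15A at 4032 and 4681 bp, and lin-8 at 20309 bp.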

How the data were processed

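LIN-15B ChIP-seq of whole L3 larvae was analysed in 2 biological replicates of 1 group, with fragments of 150 to 350 bp per the labels. The deposited ce11 lists were derived, per the text records beside the files, from the alignments of each replicate or of both, and the IDR list holds those that passed a threshold. The authors deposited a signal value and a −log10 q-value for every peak. Which aligner, peak caller and cut-offs they used is not given in the sources used here. Lists in build ce10 were left out.

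Summits are the interval start plus the deposited offset. Windows were set on WBcel235 (the ce11 assembly) with Ensembl release 115, and RefSeq gives the 4 members the same 5' ends. Replicate entries were matched to a peak by an overlap of at least 1 bp, taking the nearest summit. Sequences and annotated products are from RefSeq, build WBcel235. The window code was tested on simulated data. Python 3.11.15, numpy 2.4.6 and matplotlib 3.10.9 were used.

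The members, lists, windows and motifs were chosen with earlier results of these data known. Named genes were the members, genes at or beside their peaks, lin-15B, lin-3, up to 4 bound genes per list and the 3 genes most like a bound member. Alternatives covered the window, the anchor, the peak list and the overlap rule.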

Additional observations from a re-analysis of the deposited data

How the results depend on the processing

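The call at lin-38 held with a window of 1000 bp upstream, the 1665 highest IDR peaks, peak intervals in place of summits and the highest 3331 peaks of either replicate alone, which gave 1 bound member each. With a window of 200 bp upstream the count was 0 of 4 members (7.59% of all genes), because the lin-38 summit lies 212 bp upstream. The 58 genes of the other lists went from 19 bound to 7 in that window. With 1000 bp upstream the heterochromatin and MEC list went from 2 to 4, and with the 1665 highest peaks the suppressor list went from 4 to 2 and the EGF-Ras-MAPK list from 1 to 0. Counting intervals that overlap by 1 bp, or 1000 bp upstream, gave lin-15A a pooled window signal of 7.40 and a replicate 2 signal of 4.87. In alternatives chosen after seeing the data, a longer list, the 4585 pooled peaks whose q-value reached the ceiling, gave 1, and with the window set on the first coding base as well it gave 2, as the lin-56 entry at 624 bp then counted. Within 2 kb in place of 5 kb, 1 member had an IDR summit. With a replicate left out, 3 to 4 did within 5 kb, lin-8 entering on replicate 1 alone. At 5 kb the 1665 highest IDR peaks gave 2 members (lin-15A and lin-38, against 21.1% of all genes). The longer list gave 4 at that reach (against 40.6%). Around the lin-38 summit 1 kind of motif was found, against 3 in its promoter. The nearest summit to lin-56 moved from 4032 to 51839 bp in the stricter list and to 624 bp in replicate 2 alone, and that to lin-8 from 20309 to 1987 bp in replicate 1 alone and to 1120 bp in the longer list. The unknown depth and the count of 4 genes limit what these values can show. No paired analysis was possible because there was 1 group.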

Other observations

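The intronic entries of lin-8 shared a sequence that the motifs above do not cover. At 1052 bp (pooled signal 12.3, chrII:3057824-3057924) and 2952 bp (4.95, chrII:3059724-3059824) the sequence within 50 bp of the summit held GGTTCNANNCC, the B box of tRNA gene promoters, on the plus strand of each. The match, in capitals, is shown for both.
lin-8 entry at 1052 bp: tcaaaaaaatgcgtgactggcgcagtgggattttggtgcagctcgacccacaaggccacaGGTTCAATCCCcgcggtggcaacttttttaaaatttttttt
lin-8 entry at 2952 bp: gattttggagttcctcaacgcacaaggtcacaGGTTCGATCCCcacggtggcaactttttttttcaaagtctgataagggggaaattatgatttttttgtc
The windows were aligned on the box without gaps. They were compared from 20 bases before the box to 31 bases counted from its start, not over their full overlap. Of the 51 bases compared, 43 were identical. These bases include the box, whose fixed letters match by the way the pair was found. The annotation places 0 non-coding genes inside lin-8. The pattern, searched on both strands and chosen after the sequences were seen, occurred at 1.59% of IDR summits, at 3.19% of the 1254 lower entries at the q-value ceiling and at 0.720% of the 25415 below it. Both lin-8 entries belong to the last class (ranks 5462 and 17698). The first was in both replicates at 6.63 and 5.85, and the second at 3.86 and 3.69, with the replicate 1 summit off-centre at 2795 bp. What these sequences are was not tested.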
